A study of Mus musculus with 6 samples.

Results

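The guanylate-binding protein genes Gbp2, Gbp2b, Gbp3, Gbp4, Gbp5, Gbp6, Gbp7, Gbp8, Gbp9 and Gbp10 were followed in sorted Paneth cells (PCs), which sit at the crypt base of the small intestine and secrete antimicrobial granules. These 10 genes were found by matching the Ensembl identifiers of the count table to GENCODE, out of 55414 identifiers in all. The mice were C57BL/6J and were injected with tumour necrosis factor (TNF) or, as controls, with phosphate-buffered saline (PBS), and PCs were sorted from the small intestine 15 h later for RNA sequencing. There were 3 PBS and 3 TNF libraries, each from a different mouse. Every mouse in both groups was labelled as a knockout (KO) of Ifnar1, which encodes a chain of the type I interferon receptor, so no library came from a mouse with this receptor intact. Age, sex, dose and the cells in which Ifnar1 was deleted are not stated in the labels. Reads on Ifnar1 were present in all 6 libraries, at 5.18 to 12.7 CPM (counts scaled by library total and TMM factor to a common sum), and without a wild-type library they do not check the genotype.

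Guanylate-binding proteins (GBPs) are large GTPases of the dynamin superfamily. They are best known as products of interferon-gamma stimulation, which collect on the membranes of vacuoles that hold microbes and on bacteria in the cytosol, and which help to open these vacuoles and to start inflammasome signalling. Gbp2, Gbp2b and Gbp5 end in a motif for a lipid anchor that ties them to membranes. Their genes are switched on through STAT and IRF factors, downstream of the interferon-gamma receptor, the type I interferon receptor or, in epithelium, the interferon-lambda receptor.

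The genes lay in 2 clusters of assembly GRCm39. Gbp5, Gbp7, Gbp3, Gbp2b and Gbp2 followed each other on the plus strand of chromosome 3, from the start of Gbp5 at 142199739 to the end of Gbp2 at 142343779. Gbp8, Gbp9, Gbp4, Gbp10 and Gbp6 lay on the minus strand of chromosome 5, from 105162016 to 105443751. The proteins encoded by the canonical transcripts were most alike between Gbp6 and Gbp10, with 97.7% identical residues, and least alike between Gbp4 and Gbp5, with 43.1%. Gbp2 was closest to Gbp2b, at 76.2%, and Gbp3 to Gbp7, at 73.1%.

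Promoter windows of 250 bases before to 50 bases after the start site were read from RefSeq (GRCm38.p6), where 5 of the 10 genes, all of the chromosome 3 cluster, had an entry. They were searched on both strands for the core of the interferon-stimulated response element (ISRE, GAAA, any 2 bases, GAAA), which IRF factors bind, for the gamma-activated site (GAS, TTCNNNGAA), which STAT factors bind, and for the kappaB motif of NF-kB. The stretches from 170 bases before to 20 bases after the start are shown because the genes that differed most between libraries come from this cluster. All are on the plus strand and written 5′ to 3′, with motif matches in capitals.
Gbp2 (chr3:142620493-142620682): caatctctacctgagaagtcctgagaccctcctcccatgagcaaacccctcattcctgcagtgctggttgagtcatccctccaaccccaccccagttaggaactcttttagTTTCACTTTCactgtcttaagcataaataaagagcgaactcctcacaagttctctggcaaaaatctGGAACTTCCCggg
Gbp5 (chr3:142496764-142496953): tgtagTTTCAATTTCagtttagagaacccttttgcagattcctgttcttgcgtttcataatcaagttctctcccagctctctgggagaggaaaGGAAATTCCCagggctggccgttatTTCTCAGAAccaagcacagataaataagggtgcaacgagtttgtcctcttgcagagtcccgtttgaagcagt
Gbp3 (chr3:142559874-142560063): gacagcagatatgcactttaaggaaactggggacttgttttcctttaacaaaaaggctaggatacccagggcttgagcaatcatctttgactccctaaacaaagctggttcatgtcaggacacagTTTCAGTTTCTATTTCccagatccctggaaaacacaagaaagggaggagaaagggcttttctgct
Gbp7 (chr3:142530166-142530355): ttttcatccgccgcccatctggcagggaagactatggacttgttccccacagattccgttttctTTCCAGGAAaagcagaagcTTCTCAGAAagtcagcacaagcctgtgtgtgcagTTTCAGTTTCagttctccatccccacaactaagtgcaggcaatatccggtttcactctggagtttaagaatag
Gbp2b (chr3:142594677-142594866): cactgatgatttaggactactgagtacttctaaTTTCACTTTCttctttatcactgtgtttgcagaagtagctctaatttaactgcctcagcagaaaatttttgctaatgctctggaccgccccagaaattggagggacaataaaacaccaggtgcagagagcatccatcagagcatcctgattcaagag
An ISRE core was present in the first window of all 5 genes, and in 3.44% of the 32851 promoter windows of the RefSeq table. Counted from the start site, it began at position -59 in Gbp2, -165 in Gbp5, -53 in Gbp7 and -137 in Gbp2b, and 2 overlapping cores began at -45 and -39 in Gbp3. Gbp3 had a second annotated start, whose window held none of the 3 motifs. GAS matches were found only in Gbp5 and Gbp7, with 2 in each, of which 1 in Gbp5, at -245, lies outside the stretch shown, against 8.30% of all windows. A kappaB match was found in Gbp2, from position 8, and in Gbp5, from -77, against 8.46% of all windows. Matches of different motifs did not overlap. They describe letters and not bound sites, and Gbp2b, which had an ISRE core with the same 10 letters as Gbp2, had no count in any library.

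**Figure D1:**
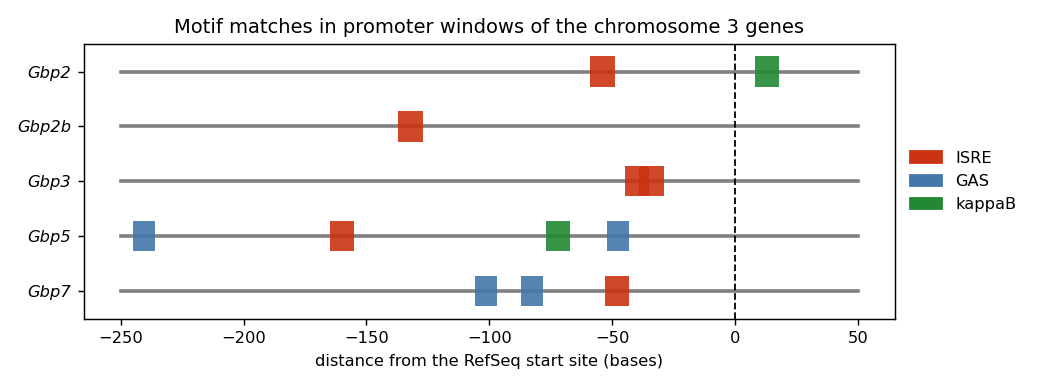
Positions of motif matches in the promoter windows of the 5 chromosome 3 genes, with distance from the RefSeq start site in bases on the horizontal axis and 1 gene per row. Red boxes are ISRE cores, blue boxes GAS matches and green boxes kappaB matches. Each gene has an ISRE core, whereas GAS matches are seen only in Gbp5 and Gbp7.

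Before the values are given, the libraries need a remark. Total counts were 12747484 to 17039511 per library. TNF replicate 1 correlated with the PBS libraries at 0.937 to 0.945 (Pearson, log2 CPM over the 13026 genes tested), but with TNF replicates 2 and 3, which correlated with each other at 0.954, at only 0.883 to 0.884. These values are taken across genes, and genes of one library are no replicates of each other. The labels do not tell whether TNF replicate 1 received its treatment as labelled or stands for another mouse. It is kept under its label, every TNF mean includes it, and results are given over all libraries and also without TNF replicate 1. The labelled cell type was borne out by its markers: the 11 PC markers together held 391645 to 481090 CPM after PBS and 285633 to 655370 CPM after TNF. Of the 18 leukocyte markers 13 had counts somewhere, with summed levels of 22.4 to 55.0 CPM after PBS and 36.4 to 45.6 CPM after TNF, and the lymphocyte genes Cd3d, Cd8a, Cd4 and Nkg7 were at 0 in all libraries. Of the other lymphocyte genes, Gzma had 4 and 5 counts in TNF replicates 2 and 3 and 0 elsewhere, and Cd3e had 4 counts in PBS replicate 1, 2 in TNF replicate 1 and 0 elsewhere. Most leukocyte marker counts were of Ptprc and Lyz2. Ptprc had 54, 375 and 461 counts in PBS and 186, 465 and 110 in TNF. Lyz2 had 238, 239 and 259 counts in PBS and 325, 268 and 315 in TNF. The 6 endothelial markers summed to 2.09 to 8.38 CPM after PBS and 2.01 to 5.28 CPM after TNF, with Cdh5, Kdr and Emcn at 0 throughout, and the 7 stromal markers summed to at most 0.667 CPM. The 9 enterocyte markers, all with counts somewhere, summed to 97.8 to 122 CPM after PBS and 101 CPM in TNF replicate 1, but to 20.4 and 24.7 CPM in TNF replicates 2 and 3. Likewise, the 4 intestinal stem cell markers summed to 2123 to 2590 CPM after PBS, 4095 CPM in TNF replicate 1, and 361 and 373 CPM in TNF replicates 2 and 3, and 4 general epithelial markers summed in the same order to 1463 to 1583, 1275, and 2974 and 2192 CPM. Olfm4 made up most of the stem cell sum in all libraries, and Fabp2 most of the enterocyte sum in PBS and in TNF replicate 1. In counts not scaled by library size, the defining stem cell gene Lgr5 had 748 to 1045 in PBS and 812 in TNF replicate 1. It had 1397 in TNF replicate 2, without the fall of the sum, and 524 in TNF replicate 3, below every PBS library. The enterocyte gene Fabp1 had 8 to 233 counts in PBS and 36, 219 and 126 in TNF, so it did not follow its sum. Markers of other secretory cells were present too, with 5 markers per type. Goblet cell markers summed to 2964 to 3330 CPM after PBS and to 3079, 2964 and 2274 CPM after TNF. Muc2 held much of this sum, with 15114 to 27873 unscaled counts in PBS and 52741 and 17878 in TNF replicates 2 and 3. The other goblet cell markers were below every PBS library in these 2 libraries. Tff3 had 14572 to 16124 counts in PBS and 5775 and 8182 there, and Fcgbp 5088 to 7591 and 1808 and 1845. Zg16 had 603 to 719 counts in PBS and 86 and 109 there, and Clca1 477 to 902 and 185 and 225. Tuft cell markers summed to 346, 930 and 1207 CPM after PBS and to 360, 781 and 412 CPM after TNF. Enteroendocrine cell markers summed to 23.4, 46.7 and 88.2 CPM after PBS and to 56.5, 21.8 and 98.97 CPM after TNF. In TNF replicates 2 and 3, where the Gbp levels were highest, the epithelial sum was above the PBS libraries. The enterocyte and stem cell sums were below them. The part of these sums in the results was not tested. In bulk samples, a different share of expressing cells and a different amount of RNA per cell cannot be told apart.

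Gbp2, Gbp3 and Gbp5 were at 22 reads or fewer in PBS and in TNF replicate 1, and at 36 to 996 reads in TNF replicates 2 and 3. Gbp7 followed with a smaller difference, while Gbp9 and the other chromosome 5 genes were at 39 reads or fewer in every library. Over all 6 libraries no member passed the test, with TNF replicate 1 on the side of the PBS libraries. Without TNF replicate 1, Gbp2, Gbp3 and Gbp7 rose and Gbp9 did not pass, and Gbp5 is described by its counts.

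Gbp2 (ENSMUSG00000028270, chromosome 3, 142326349 to 142343779) encodes a lipid-anchored GBP that collects around the vacuole of Toxoplasma. PBS replicates 1 to 3 had 13, 22 and 10 counts of it, and the TNF replicates in the same order 6, 996 and 468, which came to 0.938, 1.47 and 0.735 CPM against 0.510, 48.7 and 37.7 CPM. TNF replicate 1 was thus below every PBS library and the other two TNF libraries were far above them. The mean was 1.05 ± 0.379 CPM after PBS and 29.0 ± 25.3 CPM after TNF (SD, n = 3 each). In edgeR's quasi-likelihood test over all libraries the log2 fold change was 4.78 (SE 1.16), with an unadjusted p of 0.00238 and an adjusted p of 0.270. Without TNF replicate 1 it was 5.37 (SE 0.30, adjusted p = 2.14e-06 in edgeR).

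Gbp5 (ENSMUSG00000105504, chromosome 3, 142199739 to 142228105) encodes a lipid-anchored member known for promoting inflammasome assembly. It was at 0, 0 and 1 count in PBS, at 0 in TNF replicate 1, and at 88 and 36 counts in TNF replicates 2 and 3, or 4.30 and 2.90 CPM. Here the PBS libraries and TNF replicate 1 were indistinguishable from 0, since a count of 0 allows up to 0.255 CPM in TNF replicate 1 and less in PBS replicates 1 and 2 (3 counts, counting error only). The gene was left out by the filter on low counts when all libraries were used, because it had reads in too few of them. Summed over each group, 1 count in PBS stood against 124 in TNF, a ratio of 118 per unit of library size, with a 95% counting interval of 20.8 to 4697. This interval covers counting error only and not the spread between mice. Without TNF replicate 1 the filter kept it through its TNF counts alone, so it could only come out as different there, and that fit is not used for it.

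Gbp3 (ENSMUSG00000028268, chromosome 3, 142265731 to 142278979) encodes a GBP of the group without the lipid anchor. Its counts were 9, 10 and 16 in PBS and 0, 297 and 72 in TNF, which came to 0.649, 0.667 and 1.18 CPM against 0, 14.5 and 5.80 CPM. Again TNF replicate 1 was the lowest library and the other two TNF libraries were the highest. The log2 change in edgeR was 3.03 (SE 1.21, unadjusted p = 0.0325, adjusted p = 0.368) over all libraries, and 3.63 (SE 0.51, adjusted p = 0.000882) without TNF replicate 1. Leaving out TNF replicate 2 instead gave 1.76.

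Gbp7 (ENSMUSG00000040253, chromosome 3, 142236044 to 142255910), which is known for helping to assemble the phagocyte oxidase on vacuoles, had the highest counts of the family in PBS. It had 20, 48 and 36 counts in PBS and 16, 126 and 132 in TNF, or 1.44, 3.20 and 2.65 CPM against 1.36, 6.16 and 10.6 CPM. TNF replicate 1 was again lowest and the other two TNF libraries were highest, with a narrower gap than in Gbp2. The log2 change in edgeR was 1.31 (SE 0.66, adjusted p = 0.453), and 1.80 (SE 0.44, adjusted p = 0.0194) without TNF replicate 1. Leaving out TNF replicate 3 instead gave 0.65.

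Gbp9 (ENSMUSG00000029298, chromosome 5, 105224332 to 105287452) was the only chromosome 5 gene with enough reads for the test. It had 4, 7 and 18 counts in PBS and 0, 39 and 12 in TNF, or 0.289, 0.467 and 1.32 CPM against 0, 1.91 and 0.966 CPM, so that the groups overlapped also without TNF replicate 1. The log2 change in edgeR was 0.50 (SE 1.13, adjusted p = 0.884), and 1.08 (SE 0.92, adjusted p = 0.490) without TNF replicate 1, an error that leaves both no change and a rise of several fold within reach.

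Gbp2b was at 0 in all 6 libraries, which allows at most 0.147 to 0.255 CPM in a library. Gbp6 had 8, 1 and 0 counts in PBS and 3, 25 and 8 in TNF, and Gbp8 had 0, 0 and 8 counts in PBS and 3, 10 and 6 in TNF. Gbp4 had 8 counts in PBS replicate 2, 3 in TNF replicate 3 and none elsewhere. Gbp10 had 4 counts in PBS replicate 2, 7 in TNF replicate 2 and none elsewhere. None of these 4 genes was kept by the filter on low counts, and each had 3 counts or fewer in at least 3 libraries. In Gbp6 the CPM of TNF replicates 2 and 3, 1.22 and 0.644, were above the highest PBS value of 0.577, whereas TNF replicate 1, at 0.255, was not.

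**Figure D2:**
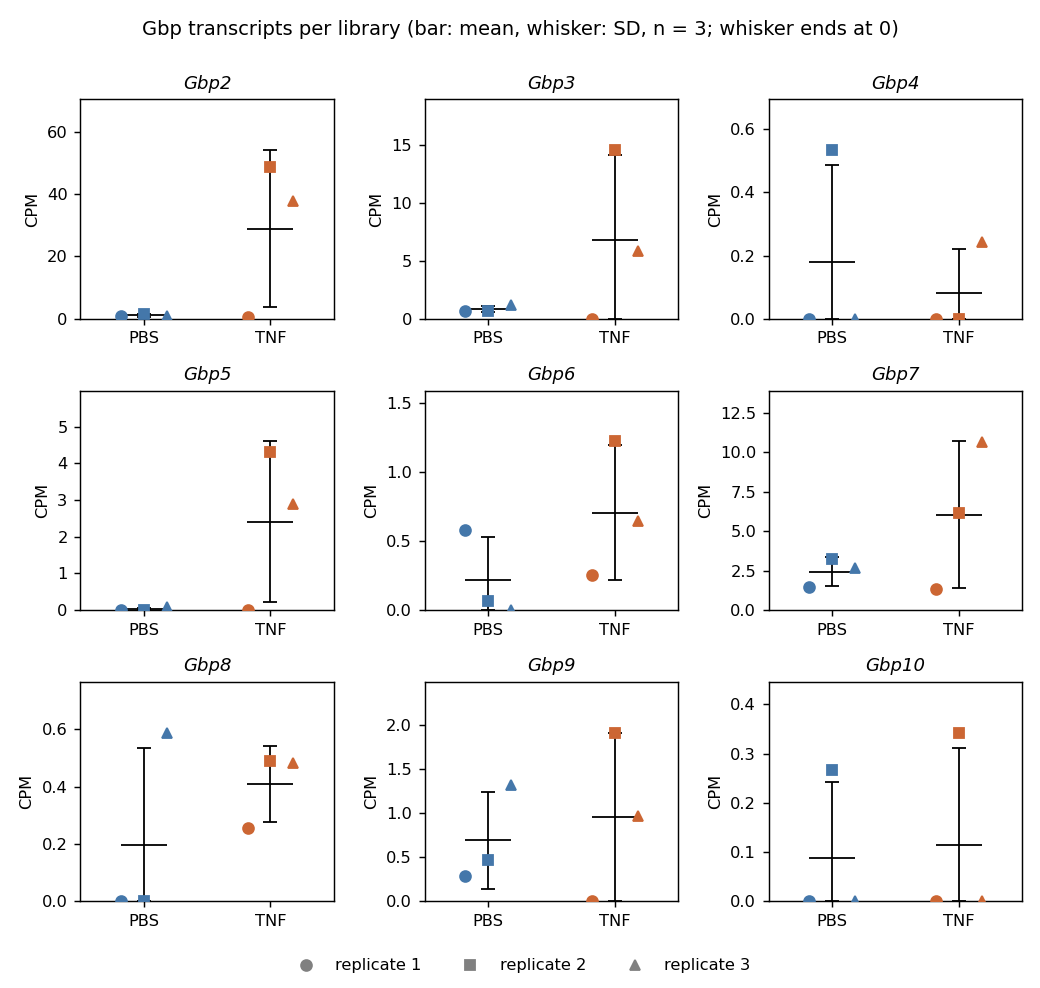
CPM (vertical axes, each from 0) of the 9 Gbp genes with counts in the PBS (blue) and TNF (orange) libraries, with 1 symbol per replicate, the group mean as a bar and the SD as a whisker. In Gbp2, Gbp3, Gbp5 and Gbp7 TNF replicates 2 and 3 lie above all PBS libraries and TNF replicate 1 does not, whereas in Gbp4, Gbp8, Gbp9 and Gbp10 the groups overlap either way.

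Counted together, 4 of the 10 members (Gbp2, Gbp3, Gbp7 and Gbp9) were tested over all libraries, and 0 of the 4 passed an adjusted p of 0.05 in edgeR, where 0% of the 13026 genes passed in either direction. At an unadjusted p under 0.05, 2 of the 4 members and 1596 of all genes remained. DESeq2 called 1 of the 4, Gbp2 (log2 fold change 4.77, SE 1.37, adjusted p = 0.0322), where 1.43% of genes were called higher and 0.284% lower, and gave Gbp9 no adjusted p. limma-voom called 0 of them and 0% of genes, with no member at an unadjusted p under 0.05 (12.8% of all genes). With sample weights limma-voom also called 0, where it called 7.06% of genes higher and 4.47% lower. There 2 of the 4 members were at an unadjusted p under 0.05, as were 30.3% of all genes. Without the filter on low counts edgeR tested 9 members and called Gbp2, Gbp3 and Gbp5, where 2.1% of 23434 genes were called higher and 0.849% lower. In that fit the SE of Gbp2 was 0.40, against 1.16 with the filter, although the libraries and their spread were the same. Gbp5 was called there with 1 count in all of PBS, so its call rests on its TNF counts alone.

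Without TNF replicate 1, 3 of the 4 members tested in both fits rose, where 9.1% of 13660 genes were called higher and 5.4% lower. Gbp5, which the filter kept there through its TNF counts alone, is left out of this count. The library left out was the TNF library most like PBS, so that this fit widens differences between the groups by its construction, and all TNF values in it rest on 2 mice. Leaving out any other single library left 0 members past the threshold, with 4 or 5 tested. No member had all 3 TNF libraries above all PBS libraries, a pattern seen in 9.07% of genes tested, and none had all 3 below, as 7.82% did. With TNF replicate 1 set aside, 3 of the same 4 members had it, where 24.1% of genes did, and 0 had the opposite one, where 21.6% did. TNF replicate 1 was itself below all 3 PBS libraries in all 4 members tested over all libraries, where 26.6% of genes were.

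**Figure D3:**
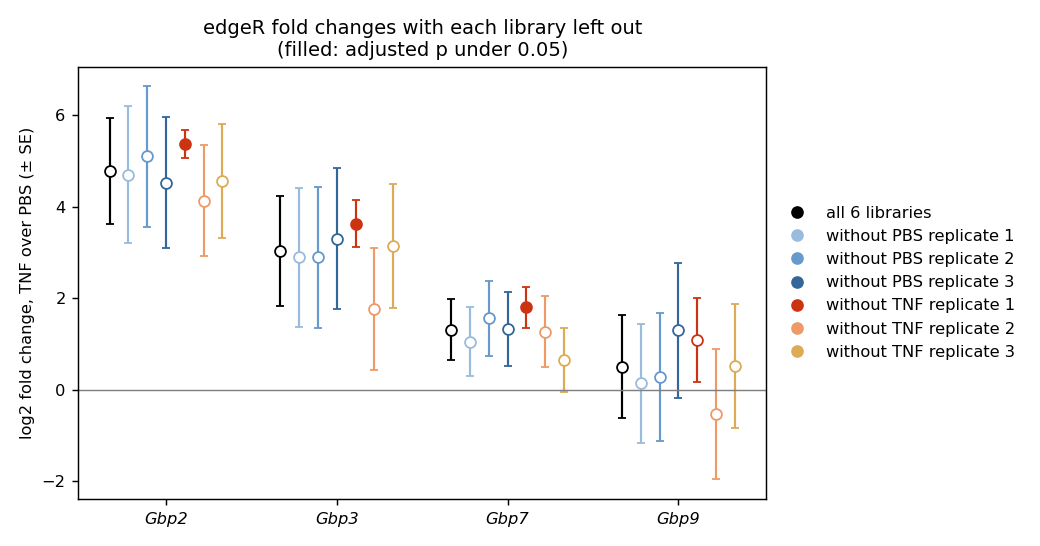
log2 fold change of TNF over PBS with its SE (vertical axis) for the 4 members tested over all libraries, from all 6 libraries (black) and with each library left out in turn (colours), with filled points for an adjusted p under 0.05. Only the fit without the first TNF replicate has filled points, in Gbp2, Gbp3 and Gbp7, and the sign of Gbp9 turns without the second TNF replicate.

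The summed level of the family was 3.90, 6.67 and 6.54 CPM after PBS, and 2.38, 77.7 and 59.3 CPM after TNF. The ratio of the group means was 8.15 over all libraries. It was 12.2 without TNF replicate 1 and 5.27 without TNF replicate 2, and between 7.53 and 8.25 under the other scalings. The chromosome 3 genes carried most of this: their sum had a ratio of 10.2 between the group means, 15.3 without TNF replicate 1, whereas that of the chromosome 5 genes had a ratio of 1.66, which was 2.33 when TNF replicate 1 and 1.01 when TNF replicate 2 was left out. The chromosome 5 sum was 0.866, 1.33 and 1.91 CPM after PBS, and 0.510, 3.96 and 2.34 CPM after TNF, so that TNF replicate 1 lay below the PBS range and the other two above it.

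The make-up of the family's reads also differed between libraries. Of all Gbp counts, Gbp7 held 37.0%, 48.0% and 40.4% in the PBS libraries, and Gbp2 held 24.1%, 22.0% and 11.2%. In TNF replicate 1, with 28 Gbp counts in all, Gbp7 held 57.1% (95% Wilson interval 39.1 to 73.5%) and Gbp2 21.4% (10.2 to 39.5%). In TNF replicates 2 and 3, with 1588 and 737 Gbp counts, Gbp2 held 62.7% (60.3 to 65.1%) and 63.5% (59.96 to 66.9%), and Gbp7 held 7.93% (6.70 to 9.37%) and 17.9% (15.3 to 20.8%). Gbp5 took 5.54% and 4.88% in those libraries, against at most 1.12% in PBS. The leading gene was therefore Gbp7 in 4 libraries and Gbp2 in the other two. That pair was alike in Gbp2 but not in Gbp7, nor in Gbp3, which held 18.7% (16.9 to 20.7%) and 9.77% (7.83 to 12.1%), intervals that do not overlap. These intervals cover counting error only.

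**Figure D4:**
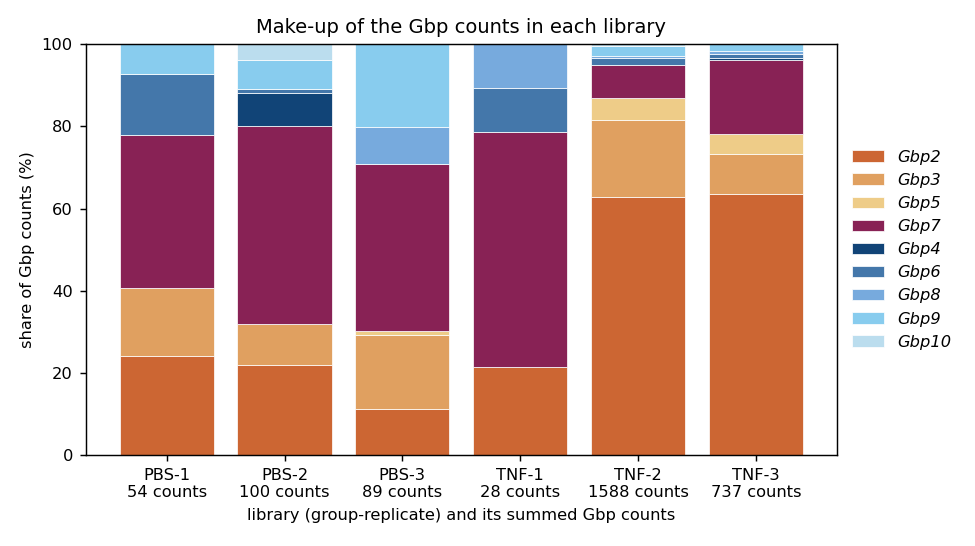
Share of all Gbp counts (vertical axis, percent) held by each member in each library, with the summed Gbp counts under the bars. Gbp7 is the widest band in the 3 PBS libraries and in the first TNF replicate, and Gbp2 in TNF replicates 2 and 3, at 62.7% and 63.5%.

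Levels between genes were compared per length, as TPM, which is counts over the summed exon length scaled to a common sum per library. In PBS, Gbp7 and Gbp2 were highest, at 0.457 ± 0.206 and 0.453 ± 0.196 TPM (SD, n = 3), and did not differ beyond their spread. Gbp3 followed at 0.217 ± 0.0898 TPM, in every library below the lowest value of Gbp2, and the rest had means of 0.0809 TPM or less with overlapping ranges. With the length of the canonical transcript instead, an alternative chosen after seeing the data, the ranges of Gbp2 and Gbp3 in PBS overlapped. In TNF replicates 2 and 3 Gbp2 was at 30.1 and 14.5 TPM, above Gbp3 at 5.41 and 1.34 TPM, and Gbp3 overlapped with Gbp7 at 1.63 to 1.75 TPM. Gbp5, at 0.392 to 0.935 TPM, was below Gbp7 and above Gbp9, whose range overlapped with that of Gbp6. On canonical length, Gbp7 and Gbp5 overlapped instead, at 1.73 to 1.85 and 0.897 to 2.14 TPM, and Gbp3 lay above Gbp7.

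How far reads can be told apart between members sets a limit on the chromosome 5 values. Of all stretches of 100 bases in the exons of Gbp6, 82.2% also occurred in another gene of the clusters, as did 76.1% of those of Gbp10. The share was 10.1% for Gbp7, 6.00% for Gbp8, 3.27% for Gbp4, 1.60% for Gbp9 and 0.905% for Gbp3, and 0% for Gbp2, Gbp2b and Gbp5. Gbp6 and Gbp10 in addition share exon bases on their strand with the annotated gene Gm43302, and Gbp7 shares 10.6% of its exon bases with the pseudogene Gm43802. Gbp4, Gbp8 and Gbp9 share 1.10 to 2.37% of their exon bases with each other. On the opposite strand, 7.82% of the exon bases of Gbp5, 5.13% of those of Gbp7, 2.77% of those of Gbp9 and 0.937% of those of Gbp2 are annotated to another gene, whose reads cannot be told apart if strand was not used. Gm43302 and Gm43802, and also Gbp11 and the pseudogene Gbp2-ps, had 0 counts in all libraries. How reads that fit several genes were treated is not stated in the labels or processing notes, so the low counts of Gbp6 and Gbp10 are uncertain, whereas Gbp2 and Gbp5, where the groups of libraries were farthest apart, had no stretch in common with another gene of the clusters.

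The genes upstream of the family were examined as a list of 28 ligands, receptors, kinases, transcription factors and inhibitors, of which 23 were tested. Over all libraries 0 of them passed in edgeR, where 0% of genes did, with 5 of 23 at an unadjusted p under 0.05 (12.3% of all genes). Of these 5, Ifngr2, Ifngr1 and Irf9 were higher after TNF. Lower were Ifnlr1, for the interferon-lambda receptor, and Socs3 (log2 fold change -1.03, SE 0.40, and -1.30, SE 0.46). Both are named after their values were seen. DESeq2 called 2 of the 23 higher (1.43% of all genes) and limma-voom with sample weights 3 (7.06%). The list's median log2 fold change was 0.24 against -0.00059 for all genes tested. Without TNF replicate 1, 7 of the 23 rose and 0 fell, where 9.1% of all genes were called higher and 5.4% lower. Of the ligands, Ifng, Ifnb1, Ifnl2 and Ifnl3 were at 0 in all 6 libraries of sorted PCs, which allows at most 0.147 to 0.255 CPM in a library. The transcript of Tnf itself, named here after its values were seen, was at 0.577, 0.133 and 0.661 CPM after PBS and at 0.680, 8.07 and 9.99 CPM after TNF, where TNF replicate 1 lay just above the PBS libraries and the other two far above. It was not kept by the filter over all libraries, and without TNF replicate 1 only its TNF counts carried it past the filter, so no test is given.

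Both chains of the interferon-gamma receptor were among the genes that rose without TNF replicate 1. Ifngr2, which binds JAK2, was at 32.2, 23.6 and 31.1 CPM after PBS and at 37.8, 162 and 148 CPM after TNF (log2 change 2.00, SE 0.47, adjusted p = 0.270 in edgeR, and 2.44, SE 0.21, adjusted p = 4.11e-05 without TNF replicate 1). Ifngr1, the ligand-binding chain, was at 21.9 to 30.2 CPM after PBS and at 42.2, 64.7 and 64.2 CPM after TNF. All 3 TNF libraries were above the PBS libraries in both chains, a pattern seen in 9.07% of all genes tested. The log2 fold change of Ifngr1 was 1.07 (SE 0.24, adjusted p = 0.270 in edgeR), and 1.26 (SE 0.20, adjusted p = 0.00209) without TNF replicate 1. Tnfrsf1b, Irf9 and Nfkb1, which encode the second TNF receptor, the DNA-binding part of the ISGF3 factor and an NF-kB subunit, had log2 fold changes of 1.16, 1.02 and 0.50 over all libraries (edgeR adjusted p = 0.429, 0.401 and 0.499), and of 1.58, 1.41 and 0.75 without TNF replicate 1, where each passed.

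Irf1, a factor known for driving Gbp genes and also named after its values were seen, did not pass in either fit. Irf1 was at 34.0 to 38.9 CPM after PBS and at 33.3, 31.8 and 34.7 CPM after TNF (log2 change -0.15, SE 0.18, adjusted p = 0.780 in edgeR, and -0.13, SE 0.19, without TNF replicate 1). The transcript level of this factor at 15 h does not report its protein or activity.

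**Figure D5:**
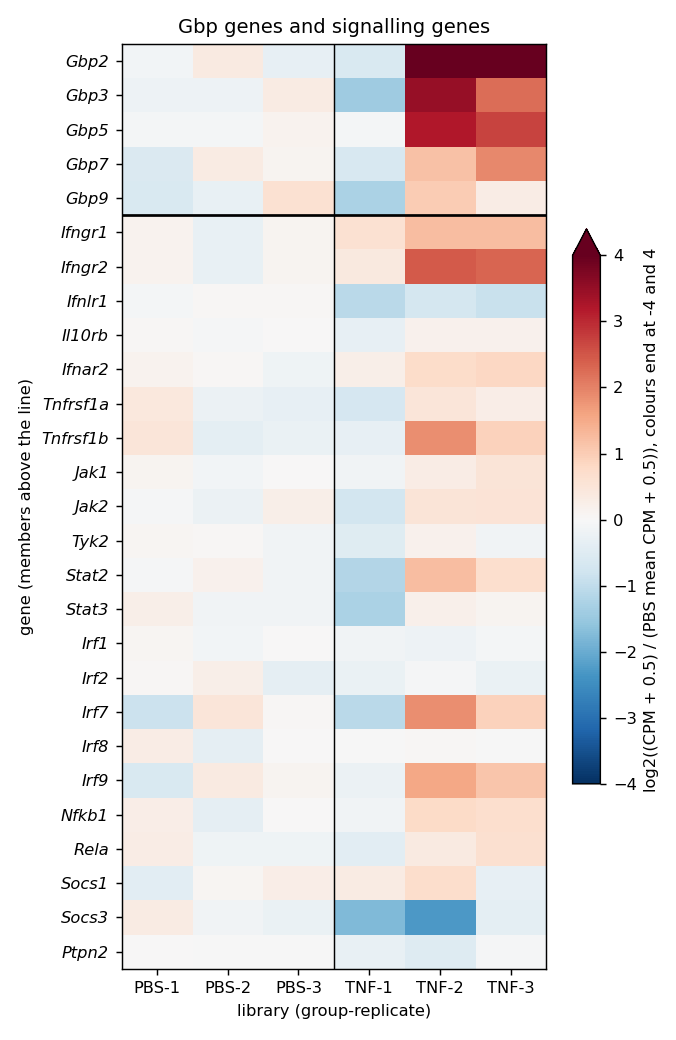
Level of 5 Gbp genes and of 22 of the 23 tested signalling genes in each library relative to the PBS mean, as log2((CPM + 0.5)/(PBS mean CPM + 0.5)), with red for higher and blue for lower and 1 column per library. TNF replicates 2 and 3 are red across Gbp2, Gbp3, Gbp5, Ifngr2, Tnfrsf1b, Irf7 and Irf9, while none of them is strongly red in TNF replicate 1, and Irf1 is near white throughout. The colours end at a log2 ratio of 4, which Gbp2 exceeds.

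A list of 29 genes for partners of GBP proteins (lipid-anchor enzymes, autophagy factors that place GBPs on vacuoles, inflammasome parts and oxidases) had 26 tested members. Over all libraries 0 passed in edgeR (0% of all genes), with 7 at an unadjusted p under 0.05 (12.3% of all genes). DESeq2 called 1 higher and 0 lower (1.43% and 0.284% of all genes), and limma-voom with sample weights 7 higher and 1 lower (7.06% and 4.47%). The median log2 fold change was 0.40, and 22 of the 26 were on the higher side. Without TNF replicate 1, 7 of the 26 rose and 1 fell, where 9.1% of all genes were called higher and 5.4% lower. Gsdmd, the pore-forming protein cut by inflammatory caspases, was at 7.07, 8.28 and 7.42 CPM after PBS and 5.78, 68.8 and 66.4 CPM after TNF (log2 change 2.63, SE 0.70, adjusted p = 0.278 in edgeR, and 3.17, SE 0.20, adjusted p = 4.80e-06 without TNF replicate 1). Nos2, which makes nitric oxide, was at 1.76 to 6.42 CPM after PBS and at 3.23, 38.2 and 76.1 CPM after TNF (3.29, SE 0.90, edgeR adjusted p = 0.278, and 3.85, SE 0.43, adjusted p = 0.000232 without TNF replicate 1). Aim2, a DNA sensor, and Gabarapl1, a tag protein of the autophagy system that brings GBPs to vacuoles, had log2 fold changes of 1.80 and 1.54 over all libraries (edgeR adjusted p = 0.326 and 0.278), and of 2.20 and 1.96 without TNF replicate 1. Atg7, the enzyme that activates these tags, was the gene that fell without TNF replicate 1, from 33.0 to 47.2 CPM after PBS to 27.1, 18.7 and 15.9 CPM after TNF (log2 change -0.88, SE 0.26, adjusted p = 0.288 in edgeR, and -1.11, SE 0.23, adjusted p = 0.00931 without TNF replicate 1). All 3 TNF libraries were below all PBS libraries in Atg7, as in 7.82% of all genes tested.

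The other families of interferon-inducible GTPases were measured less well, with 3 of 11 members tested. All 3 were on the higher side with a median log2 fold change of 0.86, and 0 passed in edgeR, with 0 at an unadjusted p under 0.05 (12.3% of all genes), 0 called by DESeq2 (1.43% higher) and 1 called higher by limma-voom with sample weights (7.06% higher). Irgm1, a regulator of vacuole-attacking GTPases, was at 14.1 to 23.3 CPM after PBS and 15.0, 49.5 and 40.7 CPM after TNF, and Igtp, an immunity-related GTPase, was at 1.69 to 4.61 CPM after PBS and 2.21, 9.83 and 7.89 CPM after TNF. Both rose without TNF replicate 1, 2 of 3 where 9.1% of all genes were called higher (log2 change 1.24, SE 0.24, adjusted p = 0.00538 in edgeR, and 1.58, SE 0.43, adjusted p = 0.0307), while Irgm2 did not pass (0.82, SE 0.42, adjusted p = 0.230). The log2 fold change of Gbp2 in the same fit was 5.37. The difference between the families was not tested.

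The 3 atlastins, relatives of the GBPs in the dynamin superfamily that shape the endoplasmic reticulum and are not known as interferon-induced, were taken as a contrast. Over all libraries 0 passed in edgeR, with 1 of 3 at an unadjusted p under 0.05 (12.3% of all genes), 0 called by DESeq2 (1.43% higher) and 1 called higher by limma-voom with sample weights (7.06% higher), and their median log2 fold change was -0.15. Atl2 differed little, at 60.4 to 78.4 CPM after PBS and 59.98 to 67.8 CPM after TNF, and Atl1 was at 1.07 to 2.94 CPM after PBS and 0.322 to 1.53 CPM after TNF. Atl3 was at 37.3 to 47.5 CPM after PBS and at 44.5, 90.6 and 79.5 CPM after TNF, and it rose without TNF replicate 1 (log2 change 0.98, SE 0.20, adjusted p = 0.00700 in edgeR).

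The genes outside the family whose course over the 6 libraries was nearest to the mean course of Gbp2, Gbp3, Gbp7 and Gbp9 included Entpd3, Oasl1, Herc6 and Slc16a3. Likeness was the Euclidean distance between log2 CPM courses centred on their means, which was 0.918 to 0.948 for these 4 genes, against a median of 4.13 over 11194 candidates. Slc16a3, a lactate transporter, was at 2.74 to 4.996 CPM after PBS and 1.44, 44.5 and 37.5 CPM after TNF. Oasl1 and Herc6, which are known as interferon-stimulated genes, were at 2.45 to 3.67 and 0.505 to 1.60 CPM after PBS, and at 1.44, 22.9 and 13.0 CPM and 0.170, 10.2 and 6.76 CPM after TNF. Entpd3, an enzyme that cleaves extracellular nucleotides, was at 1.37 to 1.94 CPM after PBS and 0.850, 12.5 and 11.4 CPM after TNF. In these 4 genes, as in the Gbp genes they were chosen to resemble, TNF replicate 1 was the lowest library.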

How the data were processed

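The sources are the deposited count table, with 1 column per library, and the sample labels, which gave groups and replicate numbers. The submitters' processing notes name FastQC, Trimmomatic 0.39, STAR 2.7.10a, DESeq2 and the build mm39, and the labels name single-end Element AVITI reads. The counting tool, annotation release, use of strand and treatment of multi-mapping reads are not stated there or in the labels. The authors deposited whole-number counts per Ensembl gene, which were used as raw counts. GENCODE (GRCm39) matched 54749 of 55414 identifiers, and the rest held 0.0193% of the counts.

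Counts were tested in R 4.3.3 with edgeR 4.0.16 (filterByExpr with a minimum count of 10 and total of 15, TMM factors, quasi-likelihood test, two-sided), with p-values adjusted by Benjamini-Hochberg over all 13026 genes kept, at a threshold of 0.05. The SE is the fold change over the square root of F. Alternatives were other scalings (RLE, upper quartile, library size), no filter, DESeq2 1.42.0, limma 3.58.1, each library left out, a replicate block, a 1% threshold and Gbp6, Gbp8 and Gbp10 summed. The overlap rule, the canonical length, counts among genes tested in both fits, and list counts by other tools or without TNF replicate 1 were added after seeing the data. The code was tested on simulated counts, in which no library was set apart from its group. That test does not cover a library like TNF replicate 1. Protein identities came from alignments with Biopython of translated GENCODE coding sequences.

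All 10 members are named. Of each context list up to 5 genes are named, those past the threshold with or without TNF replicate 1 first, in order of p, and of like genes the nearest 5 whose average log2 CPM was 1 or more. The members and lists were chosen with earlier results of these data known. Libraries of a group were not duplicates of each other (chi-square per degree of freedom at least 27.7). Some single genes of these lists are not reported here.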

Additional observations from a re-analysis of the deposited data

How the results depend on the processing

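Over the alternatives, the single tested members gave 59 values, of which 56 kept the direction of the main comparison and 3 did not, all of them of Gbp9. Its log2 fold change was -0.090 with limma-voom, -0.53 without TNF replicate 2 and -0.044 with the replicate block, and ran from -0.53 to 1.29 with each library left out; the cause was not tested. Of the 56, 6 passed the threshold where the comparison over all libraries did not. The number of members past the threshold, 0 over all libraries, was 3 without the filter on low counts and 1 with DESeq2, and from 0 to 4 with each library left out, where the highest was reached without TNF replicate 1 and includes Gbp5, which the filter kept there through its TNF counts alone (3 of 4 among members tested in both fits). It was 0 under the other scalings, limma-voom with and without weights, the 1% threshold and the sum of Gbp6, Gbp8 and Gbp10, which the filter did not keep. The 1% threshold could not give another result after 0 at the main threshold. With that sum dropped by the filter, the tested members only repeat their main values among the 59. With the replicate number as a block it was also 0, and the log2 fold change of Gbp2 was 3.99 (edgeR adjusted p = 0.385). Nothing in the labels says that the numbers pair mice, and deviations of same-numbered libraries from their group means correlated at -0.013, -0.075 and 0.031, so no pairing was used. With library size alone the median of all genes moved from -0.00059 to -0.11 on the log2 scale, and Gbp2 was at 4.81. The ratio of summed family levels ran from 5.27 to 12.2 with each library left out. At these depths members under 0.147 to 0.255 CPM in a library could not be told from 0.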
